A study of Drosophila melanogaster with 12 samples.

Results

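The genes described here encode the proteins of the muscle sarcomere, and their signal was followed in ovaries of 4 Drosophila melanogaster genotypes. They were chosen by name: 38 gene names, which stand for 35 genes, were looked up in the annotation of the array. Of these, 28 genes had a probe set of their own, out of 11982 genes with one on the array, and they were covered by 48 of its 18952 probe sets. Act57B, Mhc, Tm1, wupA, TpnC47D, TpnC25D and Mef2 had no probe set named for them alone and were not analysed here. Flightin (fln), a thick filament protein of flight muscle, read between 7.2 and 55.9 intensity units and was above background on 0 of 12 arrays. Its probe set failed the filter used here, a signal above the array's 40th percentile on at least 3 arrays. It was therefore not tested, which left 27 genes.

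The females were virgins, dissected for their ovaries 4 to 6 h after they had eclosed. There were 3 arrays each of the fertile mutant su(Hw)f/v, the sterile mutants su(Hw)2/v and su(Hw)Pb/2, and wild type (Canton S). The names show that the f/v and 2/v females share the v allele and that the 2/v and Pb/2 females share the 2 allele. The labels name a strain for wild type only, so strain and genotype cannot be told apart. Each array came from about 150 pairs of ovaries, so p-values measure the spread between pooled samples, which may be technical. The title, tissue and protocol name the ovary, but the source name and description name embryos; the samples are treated here as ovary. Per the series' design text, females this young were used because their egg chambers are still short of the stage at which sterile mutants lose theirs by apoptosis.

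In a sarcomere, myosin thick filaments pull on actin thin filaments that are anchored at Z-discs, and elastic giant proteins tie the thick filaments to the Z-discs. Calcium released into the cytoplasm binds troponin C, which moves tropomyosin on the thin filament and switches contraction on, and a calcium pump then returns the calcium to its store. In the fly ovary such striated muscle lies in the sheaths around each ovariole and around the whole ovary, while germline and follicle cells contain other, non-muscle actins and myosins. In dissected tissue, fewer cells of a type and less RNA per cell cannot be told apart.

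The transcript of su(Hw) itself read 2912, 2708 and 2591 in f/v, 85.1, 129 and 81.4 in 2/v, 85.8, 153 and 212 in Pb/2 and 3862, 3561 and 3999 in wild type. The 6 arrays of the sterile genotypes were far below the others (log2 change against wild type of -5.08 in 2/v and -4.60 in Pb/2), and f/v was not called (-0.47, adjusted p = 0.17). Between 57.8 and 63.6% of probe sets were above background, a signal that 95% of 27 probe sets for bacterial RNA did not exceed (61.97 intensity units). Correlations between arrays ran from 0.981 to 0.987 within groups and from 0.962 to 0.979 across them. CreX, a control spiked into the hybridization, averaged 1.24 (f/v), 1.40 (2/v) and 1.46 (Pb/2) times its wild type signal. The ratio of 3′ to 5′ signal of the GAPDH control was 9.33 to 9.96 in f/v, 8.57 to 11.3 in 2/v, 10.2 to 10.9 in Pb/2 and 8.11 to 10.2 in wild type. For the actin control it was lower, 1.77 to 1.83, 1.75 to 1.88, 1.69 to 1.76 and 1.77 to 1.80 in the same order. For the eIF4a control it was 3.52 to 4.09, 2.97 to 3.55, 2.87 to 3.84 and 3.33 to 3.92.

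Most of the tested sarcomere genes were lower in all 3 mutants than in wild type, in the fertile genotype as in both sterile ones. A gene was called where limma's adjusted p, over 9109 genes, was below 0.05. In f/v 17 of 27 genes fell and 1 rose, where 35.3% of all genes were called (16.9% lower, 18.3% higher). In 2/v 20 fell and 1 rose, where 46.5% of all genes were called (22.4% lower, 24.2% higher). In Pb/2 17 fell and 1 rose, where 31.5% of all genes were called (15.6% lower, 15.9% higher). The median log2 change of the 27 genes was -0.71 for f/v, -0.84 for 2/v and -0.68 for Pb/2, against medians of 0.02, 0.01 and 0.00 over all genes.

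The genes lower in all 3 mutants numbered 17 of 27 (63%), against 761 of 9109 genes (8.35%). Their changes ran from -2.08 to -0.28 on the log2 scale. In each of these 17 genes all 9 mutant arrays read below all 3 wild type arrays, and no other tested sarcomere gene had that order. The share of all genes with that order was not counted, so it is given as a description only. Averaged over the 27 genes, single mutant arrays lay at -0.83 to -0.56 relative to the wild type mean on the log2 scale, and single wild type arrays at -0.02 to 0.04. The 3 comparisons share the wild type arrays. Of the 27 genes 26 passed the filter on dim probe sets in mutant arrays alone, and the other, Act88F, was called in no comparison. Values are log2(signal + 16), an offset that understates the changes of dim genes.

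When each array was centred on its own median, the typical gene shifted by 0.16 for f/v, 0.21 for 2/v and 0.17 for Pb/2. Scaling to the hybridization controls moved it by -0.32, -0.55 and -0.59 in the same order. Relative to the median of all genes, the sarcomere genes' median was -0.61 for f/v, -0.68 for 2/v and -0.70 for Pb/2 under both of these scalings. As normalized here it was -0.73, -0.86 and -0.69. Both scalings shift all genes of an array by the same amount, so they must give the same relative medians. The centring gave splits of 16 lower and 3 higher for f/v, 18 and 2 for 2/v and 16 and 2 for Pb/2. Scaling to the hybridization controls gave 19 lower and 1 higher for f/v, 24 and 0 for 2/v and 26 and 0 for Pb/2.

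**Figure D1:**
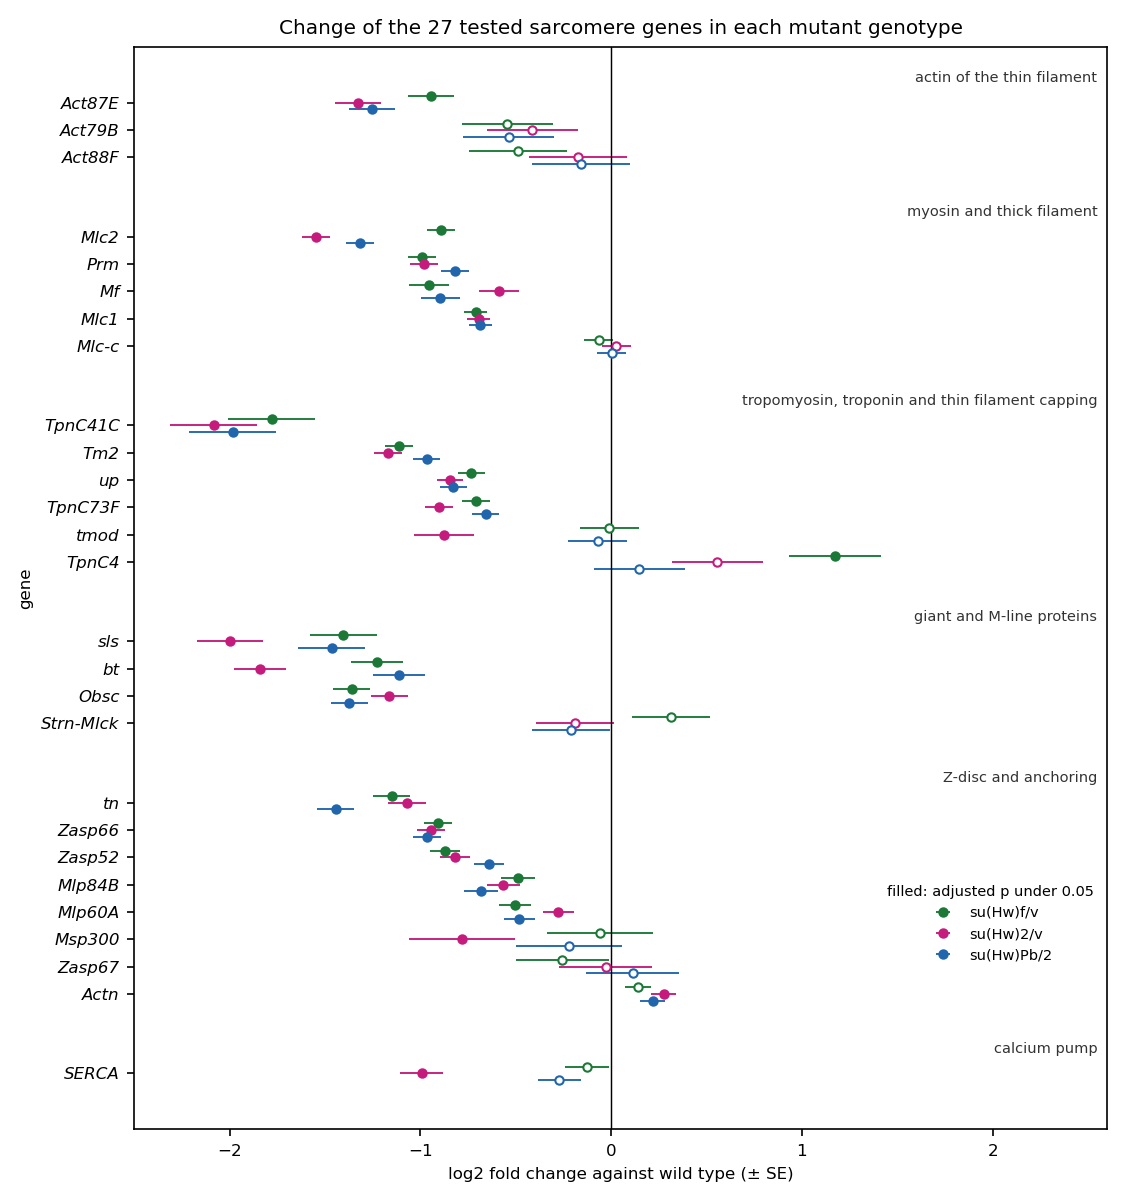
Log2 fold change against wild type (x axis, ± SE of the fit of all 12 arrays) of the 27 tested sarcomere genes (y axis, grouped by role) in su(Hw)f/v, su(Hw)2/v and su(Hw)Pb/2; filled points passed the adjusted p of 0.05. Points of 17 genes are filled left of 0 in all 3 mutants, and filled points right of 0 belong to TpnC4 in f/v and to Actn in 2/v and Pb/2, where Actn turns below 0 when arrays are scaled to the hybridization controls; Mlp60A in 2/v turns above 0 when arrays are centred on their medians.

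Among the thin filament actins 1 of 3 genes fell in each mutant and none rose. These 33.3% called were near or below the share of all genes called (35.3% for f/v, 46.5% for 2/v and 31.5% for Pb/2). Of all genes 16.9, 22.4 and 15.6% were lower in the same order. Act87E, a muscle actin, read 4555, 4698 and 4546 in f/v, 3072, 3812 and 3715 in 2/v, 3126, 3779 and 4325 in Pb/2 and 9053, 9304 and 8262 in wild type. Every mutant array was well below every wild type array, and its changes were -0.94 ± 0.12 (adjusted p = 0.00018) for f/v, -1.33 ± 0.12 (1.3e-05) for 2/v and -1.25 ± 0.12 (2.1e-05) for Pb/2. Its probe set (1636348_s_at) is of a type that can match several similar transcripts. The probe sets of highest mean of Tm2, tn, Mlp84B, tmod and SERCA are of the same type. Act79B, an actin of tubular muscles, changed by -0.54 ± 0.24 for f/v (adjusted p = 0.10), -0.41 for 2/v (0.18) and -0.54 for Pb/2 (0.12), with groups that overlapped. These missed the threshold here and passed it in all 3 mutants with values as deposited (adjusted p = 0.032, 0.026 and 0.026). Act88F, the actin of flight muscle, read 34.9 to 62.0 in f/v, 58.6 to 84.9 in 2/v, 52.4 to 112 in Pb/2 and 66.2 to 91.4 in wild type, and was above background on 7 of 12 arrays.

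The myosin and thick filament genes fell in 4 of 5 cases in each mutant (80%), all but the light chain of non-muscle myosin. The share of all genes lower was 16.9% for f/v, 22.4% for 2/v and 15.6% for Pb/2. Mlc2, the regulatory light chain of muscle myosin, read 4713, 4140 and 4458 in f/v, 2566, 2909 and 2952 in 2/v, 3283, 3276 and 3325 in Pb/2 and 7968, 8442 and 8292 in wild type. None of the groups overlapped, and 2/v was the lowest. It changed by -0.89 ± 0.07 (adjusted p = 8.2e-06) for f/v, -1.55 ± 0.07 (1.2e-07) for 2/v and -1.32 ± 0.07 (3.7e-07) for Pb/2. Mlc1, the essential light chain of muscle myosin, fell by nearly the same amount in each, -0.71 ± 0.06 for f/v, -0.69 for 2/v and -0.69 for Pb/2. Paramyosin (Prm), the core protein of invertebrate thick filaments, read 3775 to 3887 in f/v, 3662 to 4047 in 2/v, 4027 to 4587 in Pb/2 and 7259 to 8177 in wild type. Its changes were -0.99 ± 0.07 for f/v, -0.98 for 2/v and -0.82 for Pb/2. Myofilin (Mf), another thick filament protein, changed by -0.96 ± 0.10 for f/v, -0.59 for 2/v and -0.89 for Pb/2, and its 2/v call ended when arrays were centred on their medians (-0.21, adjusted p = 0.26).

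The cytoplasmic light chain gene Mlc-c stood apart from the muscle light chains. It read 14830 to 16410 in f/v, 15980 to 17480 in 2/v, 16100 to 17380 in Pb/2 and 15310 to 17710 in wild type, so every mutant group overlapped wild type. Its changes were -0.07 ± 0.08 (adjusted p = 0.56), 0.03 (0.80) and 0.00 (0.99). With arrays centred on their medians Mlc-c turned to 0.26 in f/v (adjusted p = 0.037) and read 0.53 in 2/v (0.00055) and 0.41 in Pb/2 (0.0036), and scaled to the hybridization controls it turned to -0.35 in Pb/2 (0.013).

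Of 6 genes for tropomyosin, troponin and thin filament capping, 4 fell and 1 rose in f/v ovaries, 5 fell in 2/v and 4 fell in Pb/2. Those falls were 66.7, 83.3 and 66.7% of the 6 genes, against 16.9, 22.4 and 15.6% of all genes. TpnC41C, a troponin C, read 81.8, 48.5 and 69.5 in f/v, 31.2, 69.4 and 55.0 in 2/v, 48.4, 71.2 and 46.6 in Pb/2 and 233, 278 and 282 in wild type. All wild type arrays were well above all mutant arrays, and the probe set was above background on 7 of 12 arrays, with mutant means of 66.6 for f/v, 51.9 for 2/v and 55.4 for Pb/2 close to background. The changes were -1.78 ± 0.23 (adjusted p = 0.00018) for f/v, -2.08 ± 0.23 (4.9e-05) for 2/v and -1.98 ± 0.23 (7.6e-05) for Pb/2, and their size depends on the offset and on a signal close to background.

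Tm2, a tropomyosin, read 4444, 4716 and 4700 in f/v, 4099, 4594 and 4643 in 2/v, 5058, 5300 and 4984 in Pb/2 and 10650, 9769 and 9614 in wild type. Mutant arrays were close to each other and far from wild type, with changes of -1.11 ± 0.07 (adjusted p = 1.3e-06) for f/v, -1.17 ± 0.07 (7.5e-07) for 2/v and -0.97 ± 0.07 (3e-06) for Pb/2. Troponin T (up), which ties troponin to tropomyosin, read 6822 to 6884 in f/v, 6006 to 6765 in 2/v, 6006 to 6858 in Pb/2 and 11020 to 11660 in wild type (-0.73 ± 0.07, -0.84 and -0.83). TpnC73F, a troponin C with a bright probe set, read 12440 to 13510 in f/v, 10690 to 11710 in 2/v, 12200 to 14140 in Pb/2 and 20750 to 21310 in wild type (-0.71 ± 0.07, -0.90 and -0.66).

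TpnC4, the troponin C isoform of flight muscle, moved the other way in f/v. It read 185, 277 and 143 in f/v, 162, 96.8 and 112 in 2/v, 68.3, 88.1 and 110 in Pb/2 and 85.5, 79.2 and 67.9 in wild type. The f/v arrays were above all wild type arrays, the 2/v arrays also, and the Pb/2 arrays overlapped wild type. The change was 1.17 ± 0.24 (adjusted p = 0.0035) for f/v, 0.56 (0.081) for 2/v and 0.15 (0.68) for Pb/2. The probe set was above background on 12 of 12 arrays, but the means of wild type (77.5) and Pb/2 (88.7) were close to it. The size of the f/v change therefore depends on the offset and on a signal close to background. Scaled to the hybridization controls TpnC4 turned to -0.56 in Pb/2 (adjusted p = 0.024).

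The giant elastic and M-line proteins gave 3 falls among 4 genes in each mutant. Sallimus (sls), the titin-like protein that spans from the Z-disc to the thick filament, read 333, 313 and 296 in f/v, 183, 214 and 212 in 2/v, 292, 412 and 224 in Pb/2 and 917, 766 and 896 in wild type. No mutant array came near wild type, and Pb/2 had the widest spread. Its changes were -1.40 ± 0.17 (adjusted p = 0.00015) for f/v, -2.00 ± 0.17 (1e-05) for 2/v and -1.47 ± 0.17 (0.0001) for Pb/2.

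Projectin (bt), the other titin-like protein of fly muscle, read 2900, 1949 and 2258 in f/v, 1326, 1676 and 1589 in 2/v, 2593, 2525 and 2484 in Pb/2 and 5102, 5571 and 5824 in wild type. The 2/v arrays were the lowest and did not overlap the other mutants. The gene changed by -1.23 ± 0.14 (adjusted p = 7.1e-05) for f/v, -1.84 ± 0.14 (3.3e-06) for 2/v and -1.11 ± 0.14 (0.00012) for Pb/2. Obscurin (Obsc, listed also as Unc-89), a giant kinase of the M-line, read 399, 366 and 328 in f/v, 389, 423 and 447 in 2/v, 365, 333 and 386 in Pb/2 and 1054, 889 and 938 in wild type. Its changes, -1.36 ± 0.10 (adjusted p = 2.8e-06), -1.16 ± 0.10 (7.4e-06) and -1.37 ± 0.10 (2.2e-06), were not called different between any mutants. Strn-Mlck, a stretchin with a myosin light chain kinase domain, was not called (0.31 ± 0.20, -0.19 and -0.21) and overlapped wild type in every mutant.

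**Figure D2:**
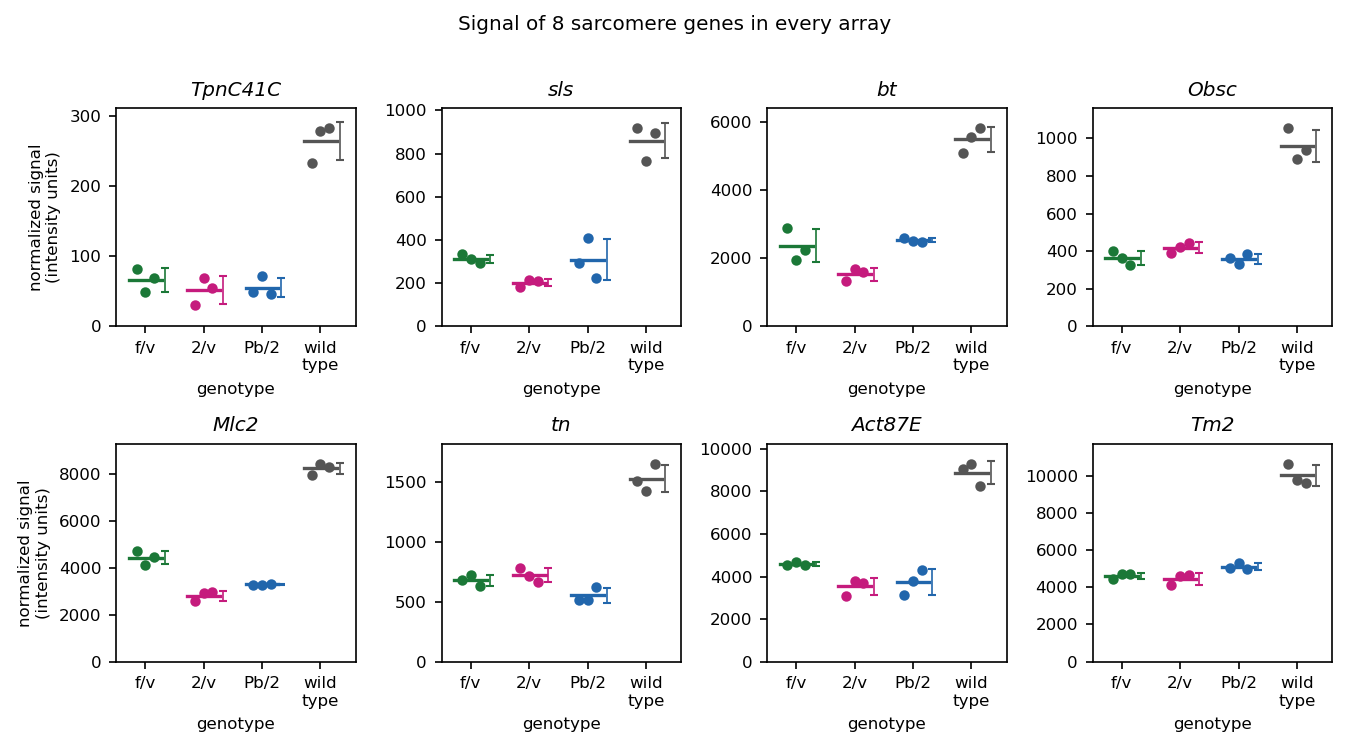
Normalized signal (y axis, intensity units) in each of the 3 arrays of su(Hw)f/v, su(Hw)2/v, su(Hw)Pb/2 and wild type (x axis) for the 8 tested sarcomere genes with the lowest mean change; points are arrays, lines are means and error bars are SD. In each panel all 9 mutant arrays lie below the 3 wild type arrays, for example TpnC41C at 31.2 to 81.8 against 233 to 282.

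Of 8 genes of the Z-disc and of anchoring structures, 5 fell in f/v ovaries, 6 in 2/v and 5 in Pb/2. In each of the sterile genotypes 1 rose. The falls were 62.5, 75 and 62.5% of the 8 genes, against 16.9, 22.4 and 15.6% of all genes. Thin (tn), a TRIM protein related to vertebrate TRIM32 that keeps Z-discs together, read 682, 722 and 634 in f/v, 783, 711 and 667 in 2/v, 517, 518 and 624 in Pb/2 and 1505, 1428 and 1654 in wild type. Every mutant array was far below every wild type array, with changes of -1.15 ± 0.10 (adjusted p = 1.1e-05) for f/v, -1.07 ± 0.10 (1.5e-05) for 2/v and -1.44 ± 0.10 (1.7e-06) for Pb/2. The PDZ-LIM protein genes Zasp66 (-0.91 ± 0.07 for f/v, -0.95 for 2/v and -0.97 for Pb/2) and Zasp52 (-0.87 ± 0.08, -0.82 and -0.64) fell in all 3. Their relative Zasp67 read 39.7 to 74.2 in f/v, 58.0 to 76.8 in 2/v, 51.8 to 101 in Pb/2 and 53.9 to 91.8 in wild type, near background, and was not called.

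The muscle LIM protein genes Mlp84B (-0.49 ± 0.09, -0.56 and -0.68) and Mlp60A (-0.50 ± 0.08, -0.28 and -0.48) showed the smallest mean falls over the 3 mutants among the 17 genes. Centred on array medians, Mlp60A missed the threshold in all 3 mutants and turned to 0.09 in 2/v. Its 2/v call also ended without wild type replicate 2 (adjusted p = 0.065). Alpha-actinin (Actn), which crosslinks actin at Z-discs and also in non-muscle cells, was higher. It read 3860, 3710 and 3698 in f/v, 4350, 4104 and 3929 in 2/v, 3846, 3827 and 4236 in Pb/2 and 3517, 3417 and 3287 in wild type. All mutant arrays were above all wild type arrays, but by little: 0.14 ± 0.07 (adjusted p = 0.13) for f/v, 0.28 ± 0.07 (0.0069) for 2/v and 0.22 ± 0.07 (0.030) for Pb/2. Scaled to the hybridization controls Actn turned to -0.24 in 2/v and to -0.35 in Pb/2. The Pb/2 call ended also in each of the fits without Pb/2 replicate 3, without wild type replicate 2 and without wild type replicate 3 (adjusted p = 0.095, 0.070 and 0.093).

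The remaining falls, of SERCA, tmod and Msp300, were called in 2/v alone. SERCA, listed also as Ca-P60A, is the pump that returns calcium to the sarcoplasmic reticulum. It read 5268, 4271 and 5254 in f/v, 2395, 2830 and 2847 in 2/v, 4818, 4508 and 4018 in Pb/2 and 4899, 5694 and 5515 in wild type. The 2/v arrays were below all others, f/v overlapped wild type, and Pb/2 lay just below it. The change was -0.13 ± 0.11 (adjusted p = 0.43) for f/v, -0.99 ± 0.11 (6.6e-05) for 2/v and -0.27 ± 0.11 (0.097) for Pb/2.

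Tropomodulin (tmod), which caps the pointed end of thin filaments, read 2135, 1606 and 2338 in f/v, 1001, 1041 and 1244 in 2/v, 1857, 2216 and 1712 in Pb/2 and 1772, 2148 and 2147 in wild type. Only the 2/v arrays stood below the rest, at -0.88 ± 0.16 (adjusted p = 0.0012), while f/v (-0.01, 0.97) and Pb/2 (-0.07, 0.77) overlapped wild type. Msp300, a nesprin that anchors nuclei and Z-discs, read 216 to 364 in f/v, 135 to 217 in 2/v, 162 to 338 in Pb/2 and 246 to 333 in wild type. It changed by -0.78 ± 0.28 in 2/v (adjusted p = 0.040), a call that ended without 2/v replicate 1, 2/v replicate 2, wild type replicate 2 or wild type replicate 3 (adjusted p of 0.097, 0.12, 0.11 and 0.11). Its difference was not called between 2/v and f/v (-0.72, 0.079) or between 2/v and Pb/2 (-0.56, 0.18).

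**Figure D3:**
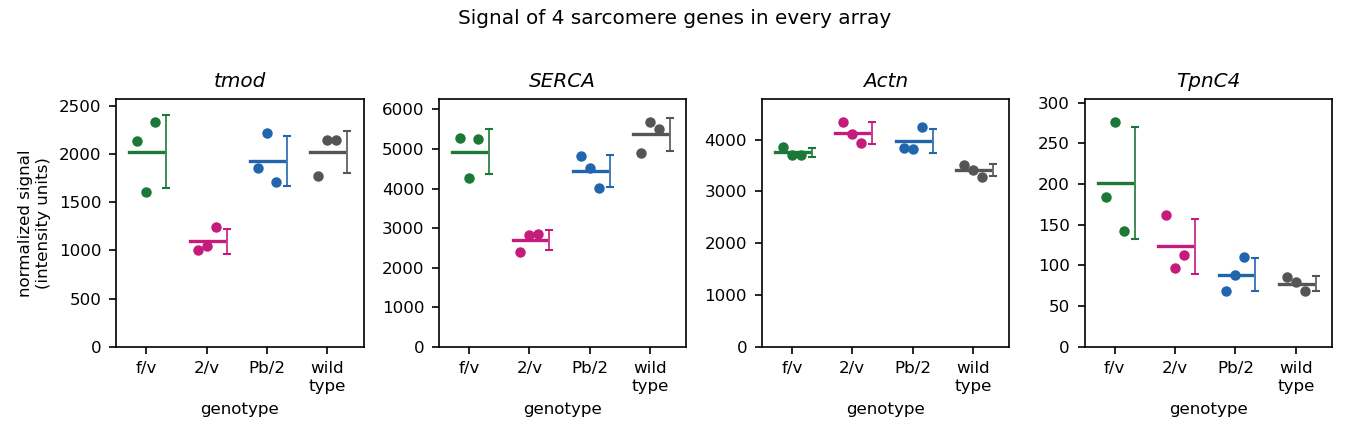
Normalized signal (y axis, intensity units) in each of the 3 arrays of su(Hw)f/v, su(Hw)2/v, su(Hw)Pb/2 and wild type (x axis) for tmod, SERCA, Actn and TpnC4; points are arrays, lines are means and error bars are SD. The 2/v arrays of tmod (1001 to 1244) and SERCA (2395 to 2847) lie below all others, and the f/v arrays of TpnC4 (143 to 277) lie above all wild type arrays.

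Between the mutants the share of sarcomere genes called was near that of all genes in both comparisons of 2/v, and below it for Pb/2 against f/v. Against f/v, 2/v had 6 lower and 1 higher of 27 (25.9%), where 27.4% of all genes were called (13.6% lower, 13.8% higher). SERCA (-0.87 ± 0.11, adjusted p = 0.00032), tmod (-0.87 ± 0.16, 0.0024) and Mlc2 (-0.66 ± 0.07, 0.00011) were lower, as were bt (-0.61 ± 0.14, 0.0080), sls (-0.59 ± 0.17, 0.030) and Act87E (-0.39 ± 0.12, 0.037). Mf was higher (0.37 ± 0.10, 0.025). The sls call ended in every fit without an array of either group, that of Act87E in all of these but the one without 2/v replicate 2, and that of Mf without f/v replicate 3, 2/v replicate 1 or 2/v replicate 3. Without 2/v replicate 3 there were 4 calls in place of 7. The split was 4 lower and 2 higher with arrays centred on their medians and 8 lower and 0 higher scaled to the hybridization controls.

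Against Pb/2, 2/v had 5 lower and 1 higher of 27 (22.2%), where 20.4% of all genes were called (9.28% lower, 11.1% higher). Those lower were tmod (-0.81 ± 0.16, adjusted p = 0.0072), bt (-0.73 ± 0.14, 0.0062), SERCA (-0.72 ± 0.11, 0.0027), TpnC73F (-0.24 ± 0.07, 0.039) and Mlc2 (-0.23 ± 0.07, 0.049), and tn was higher (0.37 ± 0.10, 0.025). By their probe sets of highest mean, SERCA, tmod, bt and Mlc2 were called lower in 2/v than in either other mutant. The other SERCA probe sets were not called for 2/v against f/v (1636669_at -0.22, adjusted p = 0.60, and 1641059_at -0.39, 0.096). Against Pb/2, 1636669_at was not called (-0.61, 0.15) and 1641059_at was lower (-0.69, 0.016). The mean of the tmod probe sets gave 0.011 for 2/v against f/v and 0.0045 for 2/v against Pb/2, and neither was called. The split was 3 lower and 0 higher both with arrays centred on their medians and scaled to the hybridization controls, and the calls of Mlc2, TpnC73F and tn also ended in each of the fits without 2/v replicate 1, 2/v replicate 2, Pb/2 replicate 1 or Pb/2 replicate 2, which left 3.

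Against f/v, Pb/2 had 2 lower and 0 higher of 27 (7.41%), where 20.5% of all genes were called (10.5% lower, 10.0% higher). These were TpnC4 (-1.03 ± 0.24, adjusted p = 0.013), high in f/v, and Mlc2 (-0.43 ± 0.07, 0.0023). The TpnC4 call ended without Pb/2 replicate 1 (adjusted p = 0.052), which left 1 call, and without Pb/2 replicate 3 there were 4. The median change of the 27 genes was -0.06 (2/v against f/v), -0.01 (Pb/2 against f/v) and -0.02 (2/v against Pb/2), against -0.01, -0.02 and 0.02 over all genes. The 3 comparisons share arrays with each other and with those against wild type.

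Measured by every probe set, 26 of 45 fell and 1 rose in f/v, where 34.0% of 10078 probe sets were called (16.6% lower, 17.4% higher). In 2/v 31 fell and 1 rose, where 45.2% were called (22.3% lower, 22.9% higher), and in Pb/2 24 fell and 1 rose, where 30.5% were called (15.3% lower, 15.2% higher). Of 10 genes with more than 1 tested probe set, none had probe sets called in opposite directions. For Zasp66, Prm and Mf every tested probe set fell in all 3 mutants. A second sls probe set (1628671_a_at) read -1.47 for f/v, -2.56 for 2/v and -1.74 for Pb/2, while another (1634102_at), above background on 5 of 12 arrays, was not called in f/v (-0.27). It was at least 1.12-fold lower in 2/v (adjusted p = 0.021), where no array was above background, and not called in Pb/2.

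Probe sets of the genes called in 2/v alone did not all follow the brightest one. For SERCA the probe set 1636669_at fell in all 3 mutants (-1.51 ± 0.28, -1.74 and -1.12), and 1641059_at fell in f/v and 2/v (-0.69 ± 0.16 and -1.08) and missed the threshold in Pb/2 (-0.39, adjusted p = 0.085). For Msp300 the probe set 1625210_a_at fell in all 3 (-1.07 ± 0.16, -1.28 and -1.14), and 1641672_at read 0.28, 0.72 and 0.38 with no call. The other tmod probe set (1639114_at), above background on 4 of 12 arrays and on none of f/v or Pb/2, was called in no mutant. That SERCA, tmod and Msp300 fell in 2/v alone therefore holds for their brightest probe sets. The other Mlp60A probe sets were near background and not called.

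**Figure D4:**
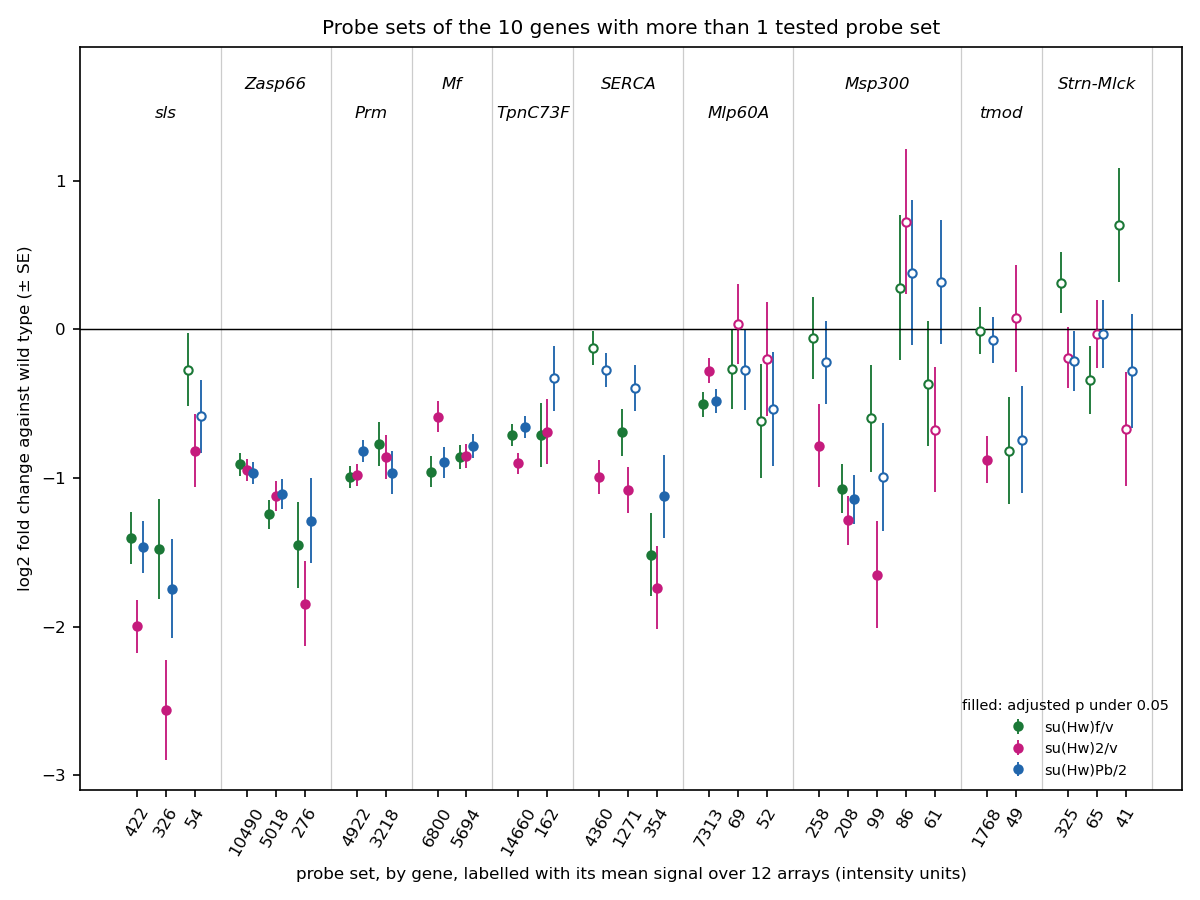
Log2 fold change against wild type (y axis, ± SE) of each tested probe set of the 10 sarcomere genes with more than 1, in su(Hw)f/v, su(Hw)2/v and su(Hw)Pb/2; the x axis groups probe sets by gene and labels each with its mean signal over 12 arrays in intensity units, and filled points passed the adjusted p of 0.05. No filled point lies above 0, and for SERCA and Msp300 at least 1 dimmer probe set is filled below 0 in all 3 mutants.

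Other muscle genes, from lists of related function, gave mixed counts. Falls are to be read against the share of all genes lower (16.9% for f/v, 22.4% for 2/v and 15.6% for Pb/2). Calls in either direction are to be read against 35.3% for f/v, 46.5% for 2/v and 31.5% for Pb/2. Of 13 genes of muscle excitation and calcium handling, 8 fell in f/v ovaries, 10 in 2/v and 6 in Pb/2, where 1 rose. Examples were GluRIID, a glutamate receptor subunit of the neuromuscular junction (-2.32 for f/v, -2.11 for 2/v and -2.14 for Pb/2), the ryanodine receptor RyR that releases stored calcium (-1.33, -1.55 and -1.24) and the receptor subunit GluRIIE (-1.28, -1.28 and -1.07). Of 11 further muscle genes, 6, 6 and 5 fell and 1 rose in each. Mp20, a muscle calponin (-1.12, -1.36 and -1.19), and the chaperone cofactor starvin, stv (-0.87, -1.21 and -1.45), fell, and the actin capping subunit cpa rose (0.32, 0.37 and 0.48).

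Of 16 genes of muscle attachment and integrin adhesion, 6 fell in f/v ovaries (37.5%), 8 in 2/v (50%) and 6 in Pb/2 (37.5%). In each mutant 1 rose. The integrin subunit gene if fell (-0.98 for f/v, -1.30 for 2/v and -1.25 for Pb/2), and another integrin subunit gene, scb, rose (0.98, 2.32 and 1.77). Of 7 genes of muscle fate and myoblast fusion, 2, 3 and 4 fell and 1 rose, the adhesion gene hbs (0.59, 2.56 and 1.72), so that 42.9, 57.1 and 71.4% were called. Of 5 genes of non-muscle actomyosin, 1 fell in each mutant and 1 rose in f/v and in 2/v, with medians of 0.02, -0.15 and -0.13, so that 40, 40 and 20% were called, near or below the share of all genes.

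The markers of gut, fat body, hemocytes, trachea and follicle cells were called lower more often than all genes in each mutant (16.9% for f/v, 22.4% for 2/v and 15.6% for Pb/2), and those of neurons and germline were not in every mutant. The summed signal of the 27 genes was 100900 to 108100 in f/v, 96010 to 101500 in 2/v, 103500 to 105800 in Pb/2 and 164400 to 168500 in wild type. Of 10 gut genes, 9 fell in f/v ovaries, 9 in 2/v and 10 in Pb/2, and their sum was 1817 to 2217 in f/v, 1638 to 1892 in 2/v, 1380 to 1580 in Pb/2 and 13180 to 14870 in wild type. The digestive trypsin gene alphaTry fell by 4.84 for f/v, by 3.43 for 2/v and by 3.71 for Pb/2 on the log2 scale. Of 5 fat body genes 4 fell in each mutant, and the sum was 64.7 to 69.4% of the wild type median for f/v, 50.1 to 55.0% for 2/v and 55.7 to 57.6% for Pb/2. Of 8 hemocyte genes 3 fell in f/v ovaries, 6 in 2/v and 5 in Pb/2, and their sum was 60.7 to 66.6%, 45.9 to 49.8% and 50.3 to 53.7% of the wild type median.

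Of 7 tracheal genes 3, 3 and 5 fell, with sums of 60.3 to 64.2% for f/v, 39.4 to 41.5% for 2/v and 41.8 to 46.2% for Pb/2. The neuronal genes did not move together. Of 7, 2, 1 and 2 fell, where 1 of 7 in 2/v is below the share of all genes, and their medians were -0.23, -0.30 and 0.32, with 5 of 7 positive in Pb/2. Their sums of 51.5 to 64.3%, 67.4 to 75.9% and 64.1 to 70.8% include elav, a pan-neuronal RNA-binding protein gene, which averaged 382 in f/v, 374 in 2/v, 379 in Pb/2 and 827 in wild type. Among the ovary's own cells, 6, 7 and 7 of 9 follicle cell genes fell, with sums of 55.1 to 64.7%, 55.6 to 63.5% and 62.4 to 72.5%. Of 9 germline genes limma called 0 lower in f/v ovaries, 5 in 2/v and 2 in Pb/2. In f/v 1 of them, BicD, passed 0.05 before adjustment (-0.18, limma adjusted p = 0.063). Their summed signal was 74560 to 82130 in f/v, 71510 to 71830 in 2/v, 75010 to 82110 in Pb/2 and 72160 to 81580 in wild type. Among these lists 1 gene each rose for hemocytes in f/v and 2/v, for trachea in f/v, for neurons in 2/v and Pb/2, for follicle cells in f/v and 2/v, and for the germline in 2/v and Pb/2. No gene of these lists lay below background on every array of the series. Whether any of them did so on all arrays of a single group was not counted. The part of gut, fat body, hemocyte, tracheal or other tissue, and of the number of muscle cells, in the lower sarcomere signal was not tested.

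**Figure D5:**
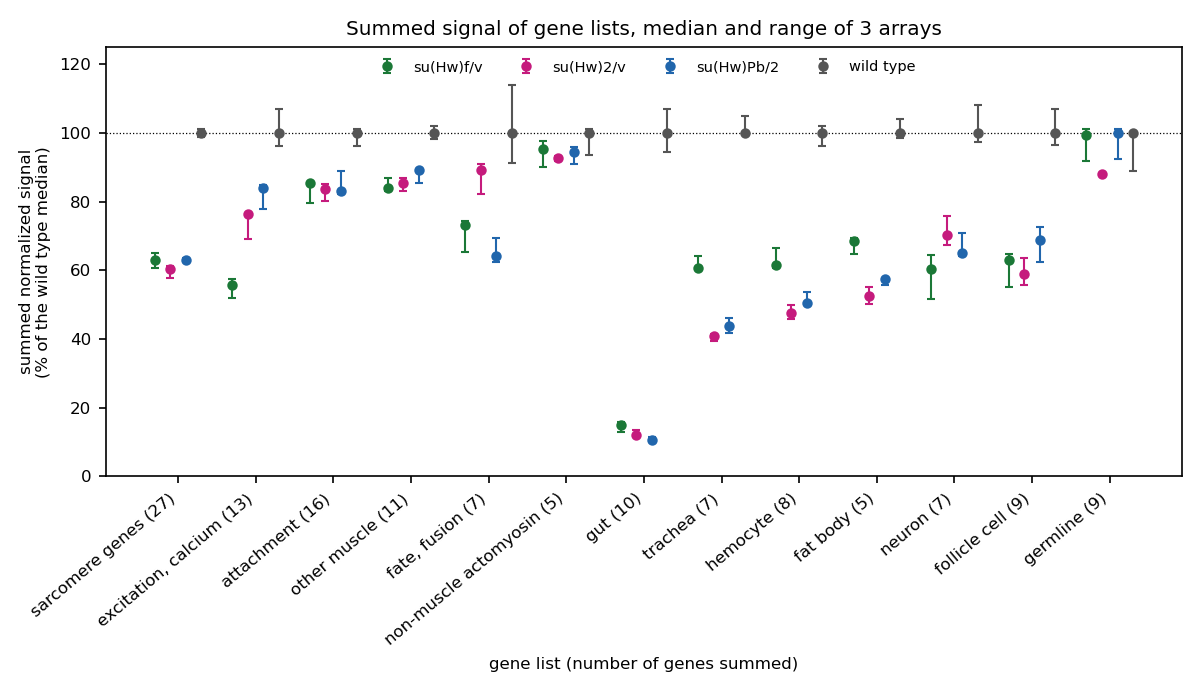
Summed normalized signal of each gene list (x axis, number of genes in brackets) as a percent of the wild type median (y axis) in su(Hw)f/v, su(Hw)2/v, su(Hw)Pb/2 and wild type; points are the median and bars the range of 3 arrays. The sarcomere genes sum to 57.8 to 65.0% in the mutants, the gut genes to 9.89 to 15.9% and the germline genes to 88.0 to 101%.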

How the data were processed

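RNA of 12 pooled ovary samples was amplified and hybridized to Affymetrix Drosophila Genome 2.0 arrays. The deposited values are linear intensity per probe set, scaled by the authors with GCOS (version not given in the sources used here), and the files show a trimmed mean of 1500 on every array. Array medians still ranged over 0.393 on the log2 scale, so the intensities were quantile normalized over the non-control probe sets and taken as log2(signal + 16). Probe sets above the 40th percentile on at least 3 arrays were kept (12618). Where several probe sets named 1 gene alone, that of highest mean stood for it (9109 genes). Names came from GEO's platform annotation updated through RefSeq. All 12 arrays entered 1 limma fit (limma 3.58.1, R 4.3.3, 8 residual degrees of freedom) with 6 comparisons and Benjamini-Hochberg adjustment over all genes. The number of arrays limits the precision.

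The sarcomere genes and the other gene lists were chosen with earlier results of these data known. Values of every array are given for the 8 tested genes with the lowest mean change against wild type, for genes called higher than wild type, for genes called between mutants with a change of at least 0.5 on the log2 scale and for su(Hw). For the other lists at most 3 called genes with the largest mean change are named. Same-numbered arrays did not deviate together (correlations of deviations from -0.15 to 0.10 over 18 pairs, 3 of 12 arrays closest to their own number), so arrays were not treated as paired. On simulated data for f/v against wild type (9109 genes, 200 changed), the fit recovered 44% of genes changed by 0.5, 83.6% by 1, 96% by 2 and 99.2% by 3 on the log2 scale, with 5.52% of calls false. In the data 3211 genes were called for f/v, far more than were changed in the simulation, so these rates need not hold there. Alternatives covered scaling, offset, filter, probe set choice, variance model, replicate block, thresholds and leaving out each array. Promoter sequences were not used here.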

Additional observations from a re-analysis of the deposited data

How the results depend on the processing

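Of 72 called differences, 70 were kept with values as deposited, 63 with arrays centred on their medians, 66 scaled to the hybridization controls, 72 with an offset of 1, 71 with an offset of 64 and 67 without a filter. Centring turned Mlc-c in f/v to 0.26 and Mlp60A in 2/v to 0.094. Scaling to the hybridization controls turned Actn to -0.24 in 2/v and -0.35 in Pb/2, Mlc-c in Pb/2 to -0.35 and TpnC4 in Pb/2 to -0.56. The mean of a gene's probe sets gave tmod 0.011 for 2/v against f/v and 0.0045 for 2/v against Pb/2. With the probe set that moved least, Mlp60A (0.037), Msp300 (0.72) and tmod (0.074) turned in 2/v against wild type, and tmod turned to 0.89 against f/v and 0.81 against Pb/2. That tmod probe set was not well above background on any f/v or Pb/2 array, so these sizes are not measured. With dim arrays set to background they are at least 1.08-fold (f/v) and 1.02-fold (Pb/2). Neither difference was called (limma adjusted p = 0.099 and 0.14). The causes of these turns were not tested.

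Calls against wild type under the hybridization controls numbered 20 for f/v, 24 for 2/v and 26 for Pb/2, where 18, 21 and 18 were called as normalized here. Calls in 2/v against Pb/2 numbered 6, and 3 with centring, with hybridization controls, with the mean of probe sets, with the probe set that moved least, with an adjusted p of 0.01 and with only the arrays compared. Calls in 2/v against f/v numbered 7, and 3 with the probe set that moved least and 4 with an adjusted p of 0.01. Calls in Pb/2 against f/v numbered 2, and 5 with hybridization controls, 5 with array weights, 4 with a trended robust variance and 1 with an adjusted p of 0.01. A change of at least 2-fold left 7 calls for f/v, 8 for 2/v and 7 for Pb/2 against wild type, 0 for 2/v against f/v, 1 for Pb/2 against f/v and 0 for 2/v against Pb/2. Leaving out 1 array at a time gave 18 to 19, 19 to 21 and 17 to 19 calls against wild type, 4 to 6 for 2/v against f/v, 1 to 4 for Pb/2 against f/v and 3 to 9 for 2/v against Pb/2.

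With the replicate block, 18, 20 and 17 genes were called against wild type, 7 for 2/v against f/v, 2 for Pb/2 against f/v and 3 for 2/v against Pb/2. It ended the calls of Actn in Pb/2 and Msp300 in 2/v against wild type and of Mlc2, TpnC73F and tn in 2/v against Pb/2. Signals near background, as for TpnC41C, TpnC4, Act88F and Zasp67, limit the size that can be measured.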
